A study of Mus musculus with 12 samples.

Results

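The ErbB receptors and their ligands were followed across 12 mRNA libraries from keratinocytes, the cells that build the epidermis, grown in culture from mouse. The set held 10 of the 54532 genes in the count table, chosen by name: the receptors Egfr, Erbb2 and Erbb3, the ligands Areg, Ereg, Hbegf, Tgfa, Btc and Epgn, and the inhibitor Errfi1. All 10 were in the table, and 9 passed the filter on low counts. Btc, with 0 to 5 counts per library, did not pass and was not tested.

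All cells carried the genotype given as WT DP-BirA(1-584): the N-terminal part of desmoplakin, which anchors keratin filaments at desmosomes, joined to the biotin ligase BirA. The fusion was induced in confluent cells with doxycycline at 2 µg/mL, together with calcium (1.2 µM as labelled) to start differentiation. Cells were scratch wounded or left unwounded and then given biotin for 16 h. From the translating fraction of sucrose gradients, neutravidin resin captured the cortical translatome, that is, messages translated near the desmosomal fusion. The depleted remainder is the total translatome, so it is not the whole pool of translating messages. Wounding and fraction together gave 4 groups of 3 libraries. The time between wounding and lysis is known only through the biotin pulse, and no group lacked the fusion, doxycycline or biotin.

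Egfr and its relatives are receptor tyrosine kinases of the cell surface. Ligands are made as membrane proteins, cut loose by ADAM proteases, and bring receptors together in pairs, which starts signalling through Ras and the MAP kinases, PI3-kinase and STAT3. Erbb2 has no known soluble ligand and acts as a partner, and Erbb3, whose kinase is weak, binds neuregulins. In keratinocytes the pathway is known for driving proliferation and migration, including the closing of wounds. Errfi1 (also called Mig6) is an inhibitor that is itself induced by receptor signalling.

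Library totals ran from 8980013 to 23457548 counts. Keratinocyte markers were detected in every group (9 of 9, led by Krt5 and Krt14), with summed levels of 8458 to 9735 CPM (counts scaled by the effective library size) in unwounded total, 13196 to 13294 in unwounded cortical, 15045 to 17766 in wounded total and 18722 to 19094 in wounded cortical libraries. Fibroblast markers summed to 0.836 to 6.47 CPM with Thy1 and Dcn at 0, and melanocyte markers to 2.31 to 10.4 CPM with Tyr at 0. Endothelial markers reached at most 1.87 CPM with Cdh5 at 0. Immune markers summed to 17.8 to 58.7 CPM, nearly all from Cd68, with Adgre1 and Cd207 at 0. Cd68 rose after wounding from 23.2 ± 2.10 to 50.7 ± 7.76 CPM in the total fraction (log2 fold change 1.13, adjusted p = 7.85e-05) and from 19.3 ± 1.56 to 35.2 ± 3.02 CPM in the cortical fraction (0.86, adjusted p = 0.00372). The part of the shift in these marker sums in the results below was not tested. In bulk libraries, fewer cells of a type and less RNA per cell cannot be told apart. The wounded total replicate 1 stood apart: 41.2% of genes expected at 10 to 20 counts were at 0 there, against 0.607% to 24.7% in the other libraries. The main changes on leaving it out are given beside the results.

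Of the members, 4 ligand genes form a cluster on mouse chromosome 5 (GRCm38): Epgn (ENSMUSG00000035020, 91027464 to 91035215, plus strand), Ereg (ENSMUSG00000029377, 91074622 to 91093646, plus strand), Areg (ENSMUSG00000029378, 91139599 to 91148432, plus strand) and Btc (ENSMUSG00000082361, 91357261 to 91402994, minus strand). They span 375.531 kb and are the only 4 protein-coding genes among the 7 annotated there. Egfr (ENSMUSG00000020122) and Erbb2 (ENSMUSG00000062312) lie on chromosome 11 at 16752203 to 16918158 and 98412470 to 98437716, plus strand, and Erbb3 (ENSMUSG00000018166) on chromosome 10 at 128567523 to 128589652, minus strand. Tgfa (ENSMUSG00000029999) is on chromosome 6 at 86195223 to 86275719, plus strand, and Errfi1 (ENSMUSG00000028967) on chromosome 4 at 150853919 to 150868892, plus strand. Hbegf is ENSMUSG00000024486. The libraries did not keep strand, so reads of an antisense partner cannot be told from those of the gene. Among opposite-strand genes that overlap members, Egfros had 0 to 27 counts and Gm19610, over the start of Ereg, 0 to 29, while Mien1 (308 to 1172 counts) shares only 9 bases with Erbb2.

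Promoters are shown for Epgn, the ligand that fell after wounding (below), for its neighbour Areg, which did not pass the test, and for Errfi1. RefSeq windows (GRCm38.p6, from 250 bases before a gene's start) were obtained for 7 of the 10 members, with 8 windows. Hbegf was not looked up, and no window was found for Ereg or Erbb3. Each sequence is the plus strand, 5′ to 3′, from upstream of the start. Capitals mark TATAAA, a word that positions transcription starts in many promoters, and TGACGTCA, the cyclic AMP response element (CRE).
Epgn promoter, chr5:91027267-91027463: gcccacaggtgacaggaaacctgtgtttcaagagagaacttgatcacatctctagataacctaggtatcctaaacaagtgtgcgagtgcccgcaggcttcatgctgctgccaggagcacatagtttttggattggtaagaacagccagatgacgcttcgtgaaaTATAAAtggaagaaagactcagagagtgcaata
Areg promoter, chr5:91139349-91139598: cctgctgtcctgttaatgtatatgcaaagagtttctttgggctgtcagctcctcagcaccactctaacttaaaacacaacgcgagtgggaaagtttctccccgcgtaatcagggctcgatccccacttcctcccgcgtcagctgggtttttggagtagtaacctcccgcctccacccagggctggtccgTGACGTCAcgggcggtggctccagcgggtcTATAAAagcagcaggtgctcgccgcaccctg
Errfi1 promoter at the second of its RefSeq starts, chr4:150854820-150855069: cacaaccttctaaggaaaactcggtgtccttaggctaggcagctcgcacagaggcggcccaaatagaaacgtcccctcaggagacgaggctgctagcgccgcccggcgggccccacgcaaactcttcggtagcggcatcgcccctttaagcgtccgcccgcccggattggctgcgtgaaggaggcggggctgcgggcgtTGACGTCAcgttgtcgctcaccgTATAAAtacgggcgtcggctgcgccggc
Both strands of 300-base windows were searched for TATAAA, for TGACGTCA, for the AP-1 word TGANTCA and for the CArG box bound by SRF. A CRE lay at -61 to -54 in Areg and -51 to -44 in Errfi1, counted from the RefSeq start, and each was followed by TATAAA at -31 to -26 and -28 to -23. The Errfi1 start used here, 150855070, lies inside the gene span given above. The window at its other start, 150853796, held none of the words searched for. The CRE was found in 1.79% and TATAAA in 13.6% of all 32851 windows. The Epgn window held TATAAA at -86 to -81 from RefSeq's start at 91027517, and none of the other 3 words. The Epgn sequence shown stops before the gene start given above, 91027464, which lies upstream of RefSeq's start. The TATAAA is thus nearer to that gene start than to RefSeq's. The AP-1 word and the CArG box, present in 7.81% and 1.63% of windows, were not found in the windows of these 7 members. The windows of Egfr, Erbb2, Tgfa and Btc held none of the words searched for, so the promoters shown are those with a match. A CRE is 8 letters and an AP-1 word 7, and neither contains the other. These are matches of letters and not measured sites.

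Levels between genes were compared on the deposited FPKM scale, which is per length. Erbb2 was the highest member, with a mean over the 12 libraries of 19.9 FPKM. Tgfa followed at 11.4 FPKM, then Erbb3 at 7.16, Errfi1 at 6.19 and Egfr at 3.33. Erbb2 exceeded Tgfa and Tgfa exceeded Erbb3 in all 12 libraries. Erbb3 exceeded Errfi1 in 8 of 12 libraries, so the order of that pair was within the spread. Among the low ligands, Epgn had 3.08 FPKM, Hbegf 2.57 and Areg 2.42, and the ranges of Egfr, Epgn, Hbegf and Areg overlapped between neighbours. Ereg, at 0.488 FPKM, was below Areg in all 12 libraries. Btc was listed at a mean of 0.021 FPKM, with 20 counts over 7 libraries and 0 counts in the other 5. By counting error alone a count of 0 allows up to 3 counts, which is 0.117 to 0.305 CPM depending on the library. Zeros among genes expected at 10 to 20 counts (above) show that a 0 in this table can stand for a higher level.

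Tgfa, a ligand of Egfr, had the largest share of the summed FPKM of the 6 member ligands, a sum that leaves out the neuregulins: 50.2% ± 3.46 (SD, n = 3) in unwounded total, 58.4% ± 1.79 in unwounded cortical, 57.7% ± 1.97 in wounded total and 63.3% ± 6.53 in wounded cortical libraries. Its lowest share was 48.0% and its highest 67.3%. Epgn (epigen) made up 22.2% ± 3.10 of the same sum in unwounded total libraries, 15.9% ± 2.80 in unwounded cortical, 11.7% ± 5.10 in wounded total and 10.6% ± 2.28 in wounded cortical libraries. Shares of a sum move together, so a higher Tgfa share goes with a lower share of the others. Erbb2 held on average 67.0% and 65.3% of receptor message in the unwounded total and cortical groups and 64.8% and 65.3% in the wounded ones. The summed receptor message was 23.4 to 26.3 FPKM in unwounded total libraries and 27.6 to 36.1 FPKM in the other 9.

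**Figure D1:**
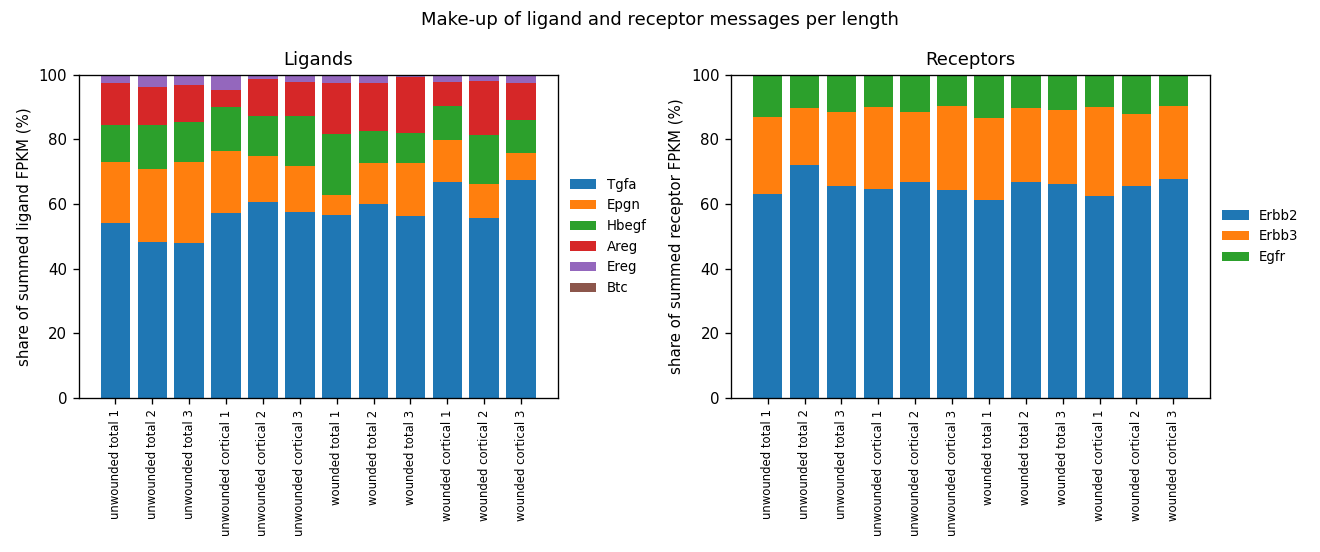
Share of the summed ligand FPKM (left) and receptor FPKM (right) in each of the 12 libraries, in percent. Tgfa holds 48.0% to 67.3% of the ligand sum and Erbb2 61.3% to 72.1% of the receptor sum.

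The comparison of cortical with total libraries of unwounded cells asks which messages were relatively enriched near the desmosomal fusion. Erbb2 and Erbb3 were higher in the cortical fraction, by 1.31-fold and 1.54-fold, while neither Errfi1 nor any tested ligand passed. Erbb2 was at 78.2, 94.8 and 91.3 CPM in the unwounded total libraries and at 115, 112 and 119 CPM in the cortical ones. All 3 cortical libraries were above all 3 total libraries. The log2 fold change was 0.39 (SE 0.104, adjusted p = 0.0180 in edgeR's quasi-likelihood test). Erbb3 was at 33.9, 26.7 and 36.5 CPM in total and at 52.3, 41.8 and 55.0 CPM in cortical libraries, again without overlap. Its log2 fold change was 0.62 (SE 0.159, adjusted p = 0.0145). Egfr also had all cortical libraries above all total ones, at 38.2, 42.2 and 38.6 against 35.1, 29.5 and 35.1 CPM, but its log2 fold change of 0.26 (95% interval -0.06 to 0.57) did not pass (adjusted p = 0.307).

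Among the ligands, Epgn and Areg (amphiregulin) had all cortical libraries below all total ones. Epgn was at 7.66, 5.18 and 5.49 CPM in cortical and 8.16, 9.77 and 9.48 CPM in total libraries (log2 fold change -0.57, interval -1.24 to 0.11, adjusted p = 0.286). Areg was at 1.45, 2.84 and 2.75 CPM against 3.77, 3.39 and 2.95 CPM, with an interval from -1.47 to 0.38. The cortical levels of Tgfa, Hbegf (heparin-binding EGF-like growth factor), Ereg (epiregulin) and Errfi1 overlapped those of the total group, with log2 fold changes of 0.10, 0.03, -0.26 and 0.05. The interval for Tgfa, -0.13 to 0.33, is narrow, and that for Ereg, -1.49 to 0.98, is wide at 12 to 107 counts per library. Thus 2 of the 9 tested members were called, both higher, where 14.2% of all 13571 genes were called, 6.62% higher and 7.59% lower. Of all genes, 17.1% had cortical libraries wholly above the total ones and 19.1% wholly below; among the 9 members these were 3 and 2. The median log2 fold change was 0.05 over the members and 0.00 over all genes tested.

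These calls had limits. Long coding sequences went with higher cortical values across all genes (Spearman 0.476 over 11487 genes, which are not independent replicates), and the receptors are the longest members, at 3630, 3768 and 4017 coding bases for Egfr, Erbb2 and Erbb3 against 456 to 744 for the ligands. With that trend removed, an alternative chosen after seeing the data, Erbb2 was at 0.13 (adjusted p = 0.530) and Erbb3 at 0.36 (adjusted p = 0.122), Egfr at 0.01, and Tgfa passed at 0.42 (adjusted p = 0.0419). Over 26 alternatives, the adjusted p ran from 3.99e-05 to 0.530 for Erbb2 and from 0.000152 to 0.122 for Erbb3. The Erbb2 call was lost without unwounded total replicate 1 (0.0913) or unwounded cortical replicate 1 (0.0616) or 3 (0.0722), and the Erbb3 call without unwounded total replicate 2 (0.0877) or unwounded cortical replicate 1 (0.0621) or 3 (0.0718).

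**Figure D2:**
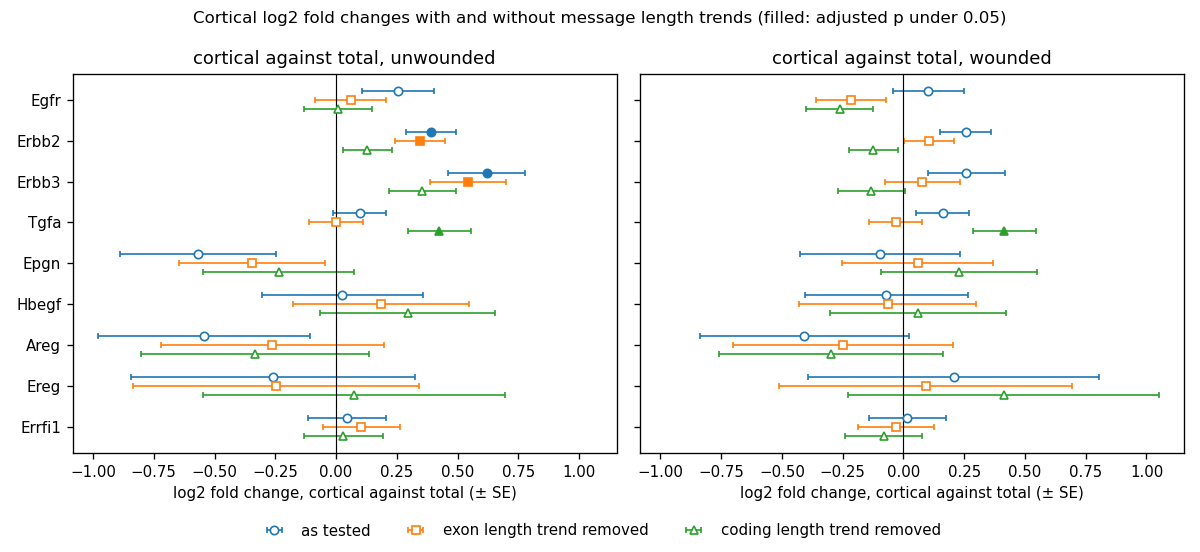
Log2 fold change of each tested member, cortical against total, in unwounded (left) and wounded (right) cells, with bars of 1 SE, as tested and with the trend on exon length or coding length removed; filled points passed the adjusted p threshold of 0.05. Erbb2 and Erbb3 are filled as tested and after removal of the exon length trend in unwounded cells, and Tgfa is filled after removal of the coding length trend in both panels.

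In wounded cells the same comparison called 0 of the 9 members by edgeR's quasi-likelihood test, against 15.7% of all genes, 7.62% higher and 8.03% lower. At an unadjusted p under 0.05 the count was 1 (Erbb2), and DESeq2 and limma on log2 FPKM each called 0. Erbb2 was at 103, 96.2 and 94.7 CPM in wounded total and 113, 108 and 129.97 CPM in wounded cortical libraries, again without overlap (log2 fold change 0.26, interval 0.04 to 0.48, adjusted p = 0.108). Its adjusted p over 26 alternatives ran from 4.65e-05 to 0.646. It passed without wounded total replicate 1 (0.29, adjusted p = 0.0455) and with scaling by library size alone (0.46, adjusted p = 0.0155), which also moved the median of all genes to 0.25. With the coding length trend removed, Erbb2 was at -0.12 (adjusted p = 0.510), Erbb3 at -0.13 and Egfr at -0.26, and Tgfa passed at 0.42 (adjusted p = 0.0447). Erbb3 was at 49.1, 38.2 and 37.6 CPM in wounded total and 56.9, 42.3 and 50.2 CPM in wounded cortical libraries, which overlapped (0.26, adjusted p = 0.300). Egfr, at 48.6, 31.9 and 34.3 against 39.5, 44.0 and 39.8 CPM, differed by 0.10. Of the ligands, Areg differed by -0.41, Epgn by -0.10, Hbegf by -0.07, Tgfa by 0.16 and Ereg by 0.21 on the log2 scale, and Errfi1 differed by 0.02. Without wounded total replicate 1, Egfr was at 0.31, Erbb3 at 0.39, Hbegf at 0.44, Ereg at 0.63, Epgn at -0.37 and Errfi1 at -0.13, none of which passed. The median of the members was 0.10, or 0.29 without that library, and that of all genes 0.04. Wounded cortical libraries lay wholly above the wounded total ones for 16.2% of all genes and wholly below for 12.9%.

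**Figure D3:**
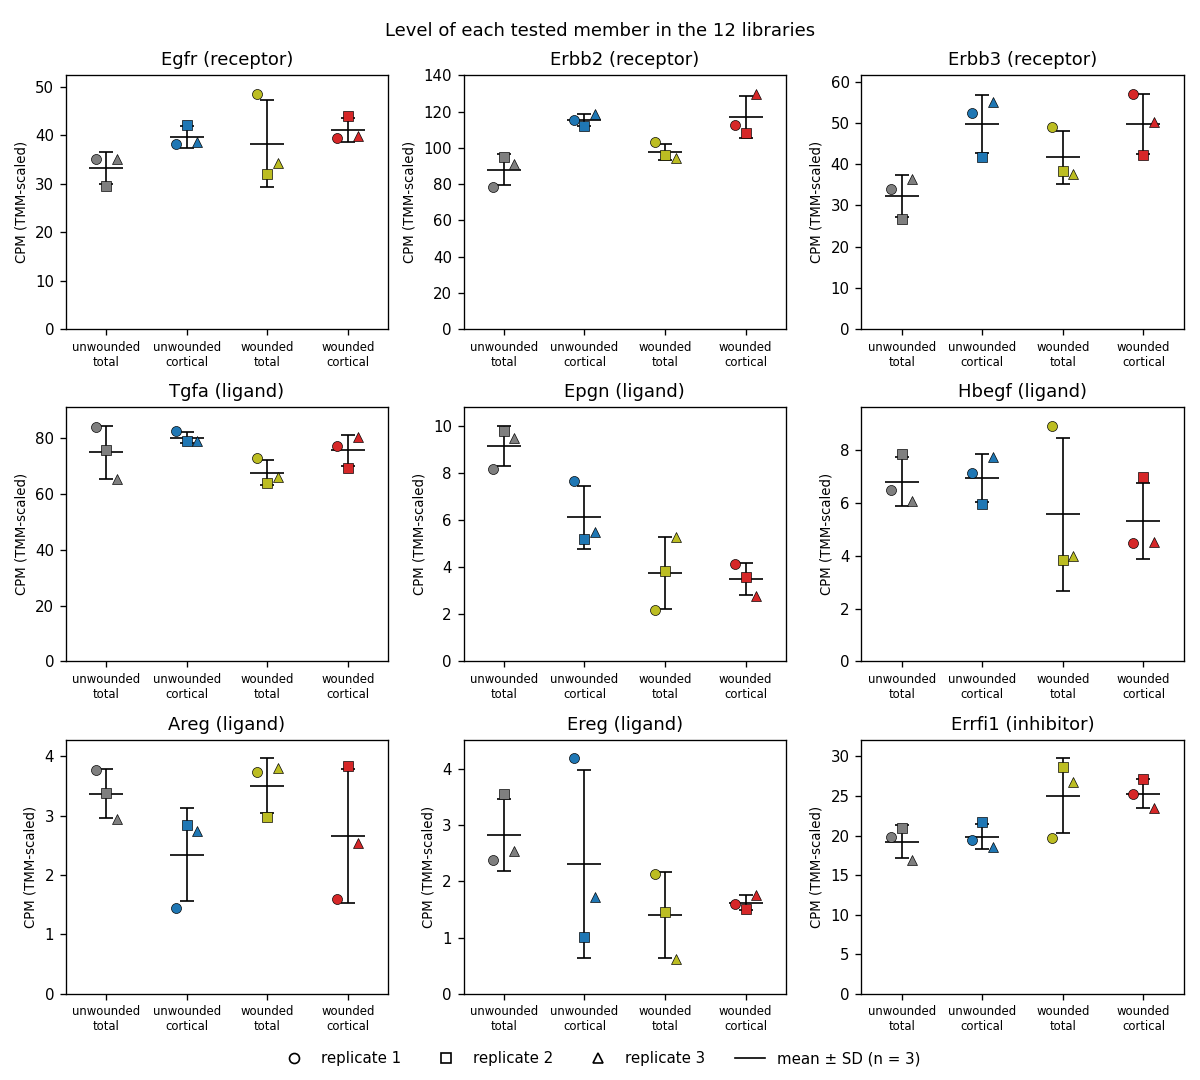
Level of each tested member in the 12 libraries, as TMM-scaled CPM on axes that start at 0; points are libraries by replicate number and bars are the mean ± SD of 3 libraries. Erbb2 and Erbb3 lie higher in unwounded cortical than in unwounded total libraries, and the 3 unwounded total libraries of Epgn, at 8.16 to 9.77 CPM, lie above all 6 wounded libraries.

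The comparison of wounded with unwounded cells in the total fraction asks which translated messages differed after the scratch. Epgn, the ligand epigen, fell to 0.412 of its unwounded level. It was at 8.16, 9.77 and 9.48 CPM in unwounded and 2.20, 3.82 and 5.27 CPM in wounded total libraries. All 3 wounded libraries were below all unwounded ones. The log2 fold change was -1.28 (SE 0.326, 95% interval -1.97 to -0.59, adjusted p = 0.0141 in edgeR's quasi-likelihood test). The call held in all 26 alternatives, at -1.60 to -0.99 and adjusted p of 0.00265 to 0.0496, and was -1.01 (adjusted p = 0.018) without wounded total replicate 1, the library with the lowest Epgn value.

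Ereg, the neighbour of Epgn, had all wounded total libraries below all unwounded ones, at 2.14, 1.46 and 0.613 against 2.37, 3.56 and 2.53 CPM. But at 10 to 63 counts per library in these groups, its log2 fold change of -1.001 had an interval of -2.26 to 0.26 (adjusted p = 0.291). Areg, the third expressed gene of the cluster, differed by 0.06, at 3.74, 2.98 and 3.80 against 3.77, 3.39 and 2.95 CPM. Whether Epgn differed from its neighbours in response was not tested. Hbegf was at 6.49, 7.85 and 6.07 CPM in unwounded and 8.90, 3.82 and 3.99 CPM in wounded total libraries, so the groups overlapped (-0.29, adjusted p = 0.631). Its value in wounded total replicate 1 was the highest of all 12, and without that library the log2 fold change was -0.80 (adjusted p = 0.059). Tgfa was at 83.9, 75.6 and 65.2 against 72.7, 64.0 and 66.2 CPM (-0.15, interval -0.38 to 0.08).

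The receptors and Errfi1 did not pass. Erbb3 was at 49.1, 38.2 and 37.6 CPM after wounding against 33.9, 26.7 and 36.5 CPM before, without overlap (0.37, adjusted p = 0.133), and Egfr and Erbb2 differed by 0.20 and 0.15. Without wounded total replicate 1, where Egfr had its highest value, Egfr was at -0.01. Errfi1 was at 19.6, 28.6 and 26.7 CPM after wounding against 19.8, 20.999 and 16.9 CPM before (0.38, interval 0.04 to 0.72, adjusted p = 0.126). It passed without wounded total replicate 1 (0.52, adjusted p = 0.0137), and Erbb3 was then at 0.23. With the coding length trend removed, Erbb3 was at 0.48 (adjusted p = 0.0155) and Errfi1 at 0.46 (adjusted p = 0.0426). The adjusted p of Errfi1 ran from 0.00615 to 0.394 over 26 alternatives. In all, 1 of the 9 members was called, where 15.6% of all genes were called, 8.39% higher and 7.20% lower. The members' median was 0.06 and that of all genes -0.03. The groups did not overlap for 1 member that was higher and 2 that were lower, against 14.5% and 17.6% of all genes.

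In the cortical fraction, wounding called 0 of the 9 members by edgeR's quasi-likelihood test. Of all genes, 2.48% were called there, 1.60% higher and 0.884% lower. At an unadjusted p under 0.05 the count was 2 (Epgn and Errfi1), and DESeq2 and limma on log2 FPKM called 0. Epgn was at 7.66, 5.18 and 5.49 CPM in unwounded and 4.16, 3.59 and 2.79 CPM in wounded cortical libraries, without overlap (-0.81, interval -1.50 to -0.12, adjusted p = 0.210). Errfi1 was at 19.4, 21.7 and 18.5 CPM in unwounded and 25.3, 27.1 and 23.5 CPM in wounded cortical libraries, again without overlap (0.35, interval 0.01 to 0.69, adjusted p = 0.277). Erbb2, Erbb3 and Egfr differed by 0.02, 0.00 and 0.05, with intervals of -0.20 to 0.24, -0.33 to 0.34 and -0.26 to 0.36. Ereg differed by -0.54, Hbegf by -0.38, Tgfa by -0.08 and Areg by 0.19. The median was 0.00 for the members and 0.02 for all genes. Wounded cortical libraries lay wholly above the unwounded ones for 15.4% of all genes and wholly below for 11.5%. The 2 wound comparisons share no library, but each shares libraries with the cortical comparisons.

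Whether the cortical difference changed with wounding was tested as the interaction, and it passed for 0 of the 9 members, where 0.125% of all genes were called. None passed at an unadjusted p under 0.05, and DESeq2 and limma called none. The interval for Erbb3, whose cortical difference was 0.62 before and 0.26 after wounding, was -0.83 to 0.11 (adjusted p = 0.682). For Erbb2 it was -0.44 to 0.18, and for Epgn -0.50 to 1.44.

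**Figure D4:**
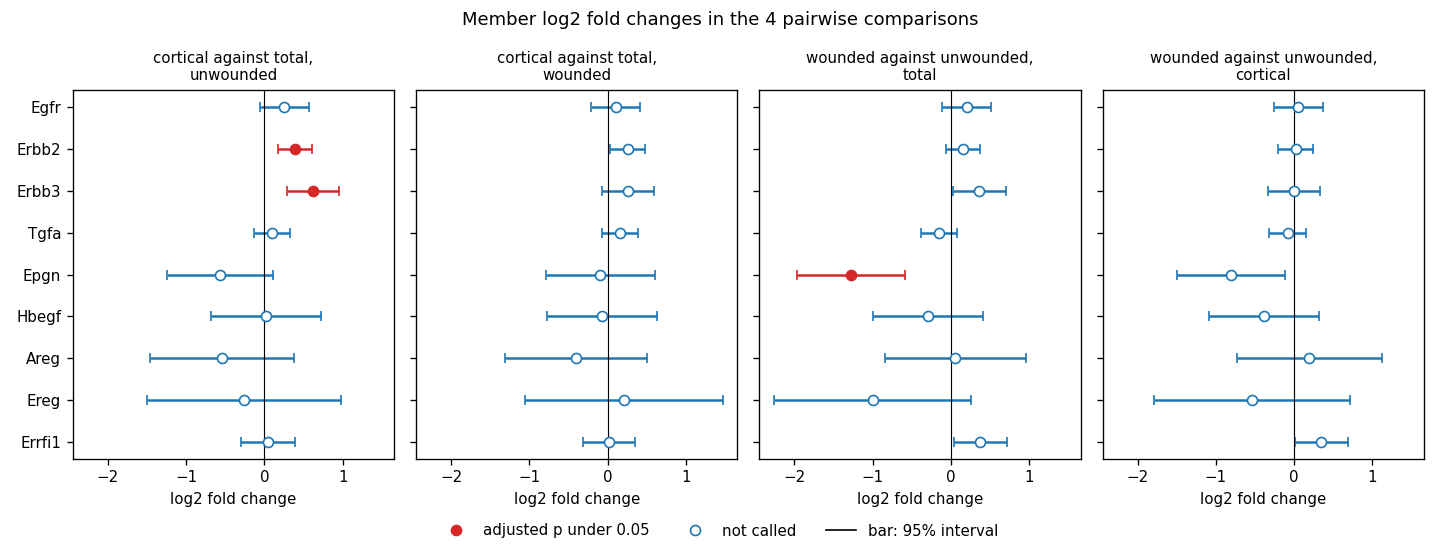
Log2 fold changes of the 9 tested members in the 4 pairwise comparisons, with 95% intervals; filled red points passed an adjusted p of 0.05. Erbb2 and Erbb3 (cortical, unwounded) and Epgn (wounded, total) are the 3 filled points, and the intervals of Areg and Ereg are among the widest.

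The proteases that shed the ligands, their helpers and the protease inhibitor Timp3 formed a list of 11 genes, all tested. In unwounded cells 2 were higher in the cortical fraction and in wounded cells 3, where 6.62% and 7.62% of all genes were higher. None of the 11 passed in the total or the cortical wound comparison, where edgeR called 15.6% and 2.48% of all genes. There 1 and 2 had an unadjusted p under 0.05, and DESeq2 and limma called 0. Adam10, a sheddase of betacellulin among others, was at 72.4 ± 6.76 CPM (SD, n = 3) in unwounded total and 96.7 ± 9.06 CPM in unwounded cortical libraries, a log2 fold change of 0.42 (adjusted p = 0.0393 in edgeR's test). Rhbdf1 (iRhom1, a helper of the sheddase Adam17) was higher in the cortical fraction by 0.42 before and 0.44 after wounding, and Adam9 by 0.69 after wounding. The list's median was 0.36 in unwounded and 0.14 in wounded cells. With the coding length trend removed, 0 of the 11 were called in either cortical comparison. The shares over all genes were then 5.42% higher and 4.4% lower in unwounded cells and 3.1% and 7.4% in wounded cells. Without wounded total replicate 1, 4 were higher in the cortex of unwounded cells and 1 fell after wounding in the total fraction. The shares over all genes were then 10.1% and 11.5%. Adam10 in wounded cells lost its call without that library (adjusted p = 0.0783).

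The relay from receptor to MAP kinase, PI3-kinase and STAT3 was a list of 27 genes, all tested. After wounding 5 rose and 5 fell in the total fraction, with a median of -0.02, where 8.39% of all genes rose and 7.20% fell. The tyrosine kinase Src rose from 49.6 ± 1.12 to 74.2 ± 2.75 CPM (log2 fold change 0.58, adjusted p = 0.000687), and the transcription factor Stat3 rose by 0.57. Stat3 was at 0.33 (adjusted p = 0.0429) without wounded total replicate 1, and with library size scaling its call was lost (0.0994). The adaptor Shc1 fell from 23.5 ± 2.75 to 14.01 ± 3.67 CPM (-0.75, adjusted p = 0.0126), and the MAP kinase kinase Map2k1 fell by 0.64 on the log2 scale, a call lost with the exon length trend removed (0.0818) or library size scaling (0.0614). The other genes that rose, named after their values were seen, were Map2k2, Plcg1 and Mapk3, of which Plcg1 lost its call without wounded total replicate 1 (0.31, adjusted p = 0.0563) or with library size scaling (0.131). Src (0.43, adjusted p = 0.0222) was also the only gene of the list that edgeR's main fit called in the cortical wound comparison. There 2.48% of all genes were called. The Src call there was lost with library size scaling (0.116). Without wounded total replicate 1, 4 of the list were higher there and 1 lower, where 5.47% and 3.6% of all genes were. With the coding length trend removed 4 were higher, where 3.72% of all genes were. DESeq2 called 3, all higher, and 736 of all 13571 genes. Between fractions, 2 were higher and 3 lower in the cortex of unwounded cells, where 6.62% and 7.59% of all genes were: Sos2, an exchange factor for Ras, by 0.69, and Src by 0.41, against Araf at -0.46 and Map2k2 at -0.38, with Akt1 the other lower gene. In wounded cells 4 were higher, Sos2 (0.82), Shc1 (0.70), Pik3cb (0.57) and Pik3ca (0.55), and 2, Map2k2 and Mapk3, were lower, where 7.62% and 8.03% of all genes were. Without wounded total replicate 1 the Pik3ca call was lost (adjusted p = 0.0548), and with library size scaling those of Araf (0.264) and Map2k2 (0.154) in unwounded and Mapk3 (0.1004) in wounded cells. With the coding length trend removed, 0 were higher in wounded cells and 1 in unwounded cells, where 3.1% and 5.42% of all genes were. Without wounded total replicate 1, the cortical counts were 6 higher and 4 lower in unwounded and 7 higher and 3 lower in wounded cells, and 4 rose and 7 fell in the total fraction after wounding. The shares over all genes were then also larger, at 10.1% higher and 12.3% lower, 12.1% and 12.6%, and 13.4% and 11.5%.

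Feedback inhibitors and genes of receptor degradation formed a list of 23, of which 20 were tested. Spred2, an inhibitor of Ras and Raf signalling, was called in all 4 pairwise comparisons. It was at 32.4 ± 4.29 CPM in unwounded total, 56.1 ± 4.08 in unwounded cortical, 16.9 ± 0.594 in wounded total and 30.4 ± 5.29 in wounded cortical libraries. It was thus higher in the cortical fraction by 0.79 before and 0.85 after wounding, and it fell after wounding by 0.94 in the total (adjusted p = 0.000459) and by 0.89 in the cortical fraction (adjusted p = 0.00357). These 4 calls also held without wounded total replicate 1 and with the coding length trend removed. In the total fraction 3 of the 20 fell after wounding, where 7.20% of all genes fell, and none rose (none at an unadjusted p under 0.05 either): Spred2, Dusp6, a phosphatase that switches off ERK, by 1.34 (adjusted p = 0.0434), and Usp8, a deubiquitinase of endosomes, by 0.79. Dusp6 was low, at 6.27 ± 1.20 CPM before and 2.47 ± 1.93 CPM after wounding, and without wounded total replicate 1 its log2 fold change was -2.21, while the call was lost with the exon length trend removed (adjusted p = 0.0713) or with library size scaling (0.0721). In the cortical comparisons Socs5 was higher by 0.79 and 0.75, Lrig2 was higher by 0.93 in wounded cells, and Rnf41, which ubiquitinates Erbb3, was lower at -0.90 in unwounded cells. The Lrig2 call was lost with the coding length trend removed (adjusted p = 0.106), as was that of Rnf41 (0.0720), which was also lost with library size scaling (0.103). The counts were 2 higher and 1 lower before and 4 higher after wounding, where 6.62% of all genes were higher and 7.59% lower before and 7.62% higher after. The last count was 8 without wounded total replicate 1, where 12.1% of all genes were higher. With the coding length trend removed it was 2, where 3.1% were.

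Genes that MAP kinase signalling is known to switch on were a list of 14, with 12 tested. In the total fraction 5 fell and 1 rose after wounding, with a median of -0.63 against -0.03 over all genes, of which 7.20% fell and 8.39% rose. The early genes Fos and Egr1 fell from 5.81 ± 1.20 to 2.55 ± 0.980 CPM and from 16.0 ± 2.20 to 8.19 ± 2.29 CPM, log2 fold changes of -1.18 and -0.97 (adjusted p = 0.0254 and 0.0112 in edgeR's test). Ccnd1, the cell cycle gene cyclin D1, fell from 30.9 ± 2.96 to 16.6 ± 0.432 CPM (-0.90, adjusted p = 0.000533), Myc fell by 0.75, a call lost with the exon length trend removed (0.0520). Phlda1, named after its value was seen, was the remaining gene that fell, and it lost its call without wounded total replicate 1 (-0.46, adjusted p = 0.0540). The gene that rose was Ier3, an early response gene, from 140.8 ± 8.26 to 234 ± 67.5 CPM. The counts were 1 higher and 5 lower without wounded total replicate 1, not the same 5 genes, where 13.4% of all genes were higher and 11.5% lower. Between fractions, 1 gene was called, Myc, higher in the cortex of wounded cells by 0.61, where 7.62% of all genes were higher. It was at 0.93 without wounded total replicate 1, and its call was lost with the exon length (adjusted p = 0.0911) or coding length trend removed (0.130). In unwounded cells 0 of the 12 were called by edgeR, DESeq2 or limma, where 3 had an unadjusted p under 0.05. There edgeR called 14.2% of all genes. In the cortical fraction 0 of the 12 passed in edgeR's test after wounding, where 2.48% of all genes did. There 2 had an unadjusted p under 0.05 and limma called 0, while DESeq2 called 2, and 736 of all 13571 genes. Ccnd1 was at -0.51 there (adjusted p = 0.0643). The interaction, called for 0.125% of genes, passed for none of the 12 (3 at an unadjusted p under 0.05, 0 by DESeq2 or limma). Without wounded total replicate 1 it called 1 of the 12, lower, where 1.88% of all genes were, and the cortical wound comparison called 2, both lower, where 3.60% were.

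By likeness over the 12 libraries, the genes whose log2 CPM followed Egfr most closely among 8856 genes averaging 100 or more counts were Clpx (Pearson 0.972), Tbl2 (0.959) and Pde4dip (0.929). For Areg they were A430005L14Rik (0.903), Tmem141 (0.820) and Sec22b (0.815). Among the members, Erbb2 and Erbb3 correlated at 0.753 and Egfr and Epgn at -0.673 over the same libraries. Wounded total replicate 1 had the highest Egfr (48.6 CPM) and the lowest Epgn (2.20 CPM) of the 12 libraries. No correlation was recomputed without it. The libraries share fractions and wounding, so these values describe the 12 libraries only.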

How the data were processed

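The authors deposited fragment counts per gene and FPKM values for each library. Per the submitters' processing notes, HISAT2 and CASAVA were used with mm10, and the counting tool is not given in the sources used here. Libraries were non-directional and made from poly-T selected messenger RNA, per the labels. Each deposited FPKM equalled the count over gene length and a library size of 0.825 to 1.10 times the column total. Of 54532 gene identifiers, 54409 were in GENCODE M21, and 98.3% of those matched in position. Titles gave groups and replicate numbers, called biological, and nothing ties a replicate to a separate culture, so p-values measure the spread between these libraries, which may be technical.

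R 4.3.3 and edgeR 4.0.16 were used for the counts (filterByExpr on the groups, TMM factors). All 12 libraries entered 1 quasi-likelihood fit with 4 group means, and 5 contrasts were tested two-sided with Benjamini-Hochberg adjustment over 13571 genes at 0.05. CPM are scaled by TMM, and log2 CPM used a prior count of 2. On simulated data with 200 changed genes among 13094, edgeR recovered 51% of 2-fold and 71.1% of 4-fold changes for the unwounded cortical comparison, and 7.09% of its calls were false. The simulation held no length trend and fewer changed genes than were called in the data, so these rates need not hold for the reported calls. Alternatives were RLE and library size scaling, DESeq2 1.42.0, limma 3.58.1 on log2 FPKM plus 1 or 0.1, no filter, a minimum mean count of 50, only the groups compared, the replicate block, a loess trend (span 0.5) on exon length removed, and leaving out each library. Chosen after seeing the data were the coding length trend, and the length trend or library size scaling without wounded total replicate 1. Named genes were all members and, per list and comparison, at most the 4 called genes with the largest change; genes beyond these were named after their values were seen. Values of 1 gene of the signal relay list are not reported here. Likeness was given for Egfr and Areg. The members and lists were chosen with earlier results of these data known. Promoter windows came from RefSeq. Figures were drawn with matplotlib 3.10.9.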

Additional observations from a re-analysis of the deposited data

How the results depend on the processing

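No result changed sign while called. Of the 1156 recomputed log2 fold changes of members, 1026 kept direction and side of the threshold, 20 gained a call, 9 lost one, and 101 changed sign where neither value was called. The members called in the unwounded cortical comparison (2) were 0 to 2 on leaving out 1 library, 1 with the coding length trend removed, 1 with the length trend removed and the replicate block, and 4 with library size scaling without wounded total replicate 1. In the wounded cortical comparison (0) they were 0 to 1 on leaving out 1 library, 1 with library size alone, 1 with the coding length trend removed, and 4 with library size scaling without wounded total replicate 1. In the total wound comparison (1) they were 1 to 2 on leaving out 1 library, 3 with the length trend removed, with or without the block, 3 with the coding length trend removed, 2 with the length trend removed and wounded total replicate 1 left out, and 3 with library size scaling without that library. That last setting called 3591, 5499 and 3981 of all genes in these comparisons, with medians of all genes at 0.19, 0.39 and -0.24. The cause was not tested.

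Same-numbered libraries deviated from their group means with correlations of -0.033 to 0.091, none over 0.1. Such low values gave no sign of pairing by number. They cannot decide the question, because each deviation is taken from a mean of only 3 libraries. The total fraction is the remainder of the cortical capture, so pairing of the fractions remains possible. The main fit did not use the replicate numbers. The replicate block alone gave 2, 0, 1, 0 and 0 members called in the 5 contrasts, where it called 1857, 1985, 2038, 276 and 10 of all genes. Erbb2 was then at 0.39, Erbb3 at 0.62 and Epgn at -1.29, and no member's call changed. In each cortical comparison 1 of the 11 shedding genes was called, higher, where 6.33% and 7.17% of all genes were.

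Over all genes, calls in the order of the contrasts were 1928, 2124, 2116, 337 and 17. Without wounded total replicate 1 they were 3151, 3475, 3502, 1276 and 413, and over all libraries left out they ran from 949 to 3151, 1084 to 3475, 1128 to 3502, 108 to 1276 and 4 to 413. With only the groups compared the first 4 were 3014, 970, 1175 and 1423. The coding length trend removed gave 1128, 1206, 2657, 629 and 55. DESeq2 gave 736 and 72, and no filter 559 and 138, in the cortical wound comparison and the interaction. Library size alone gave 199 and 11 there. The length trend removed with the block gave 1365 in the wounded cortical comparison. Counts limit Ereg, Areg and Btc most, at 10 to 107, 27 to 86 and 0 to 5 per library.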

Other observations

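The other genes of the ErbB system stood at unequal levels. Nrg2, a neuregulin and so a ligand of the Erbb3 and Erbb4 receptors, had a mean of 33.6 FPKM, above the 19.9 FPKM of Erbb2, the highest member. It was at 96.7 ± 3.99 CPM (SD, n = 3) in unwounded total, 117 ± 2.97 in unwounded cortical, 94.7 ± 6.74 in wounded total and 109.6 ± 7.32 in wounded cortical libraries. The main fit of edgeR called Nrg2 in no comparison (adjusted p = 0.0662 for the unwounded cortical one in edgeR's test). Nrg1 had 2.93 FPKM. Egf, with 0 to 28 counts, and Nrg4, with 0 to 57 counts, were near the filter, and Erbb4 and Nrg3 were listed at 0 in all 12 libraries. Hgs, an endosomal gene that cells in general express, was also listed at 0 throughout, so a 0 in this table sets no upper limit on a gene's level. Of the 6 genes, 4 were tested and 0 were called in the 5 contrasts by edgeR, where 1, 3, 1, 0 and 0 had an unadjusted p under 0.05. The shares of all genes called were 14.2%, 15.7%, 15.6%, 2.48% and 0.125%. Without wounded total replicate 1, edgeR called 1 higher in each cortical comparison, where 10.1% and 12.1% of all genes were higher. With library size scaling it called 1 in unwounded and 2 in wounded cells, all higher, where 11.7% and 16.2% were. With the exon length trend removed it called 1 higher in unwounded cells, where 5.39% were. DESeq2 called 1 in each cortical comparison, where it called 2221 and 2525 of all 13571 genes. Limma on log2 FPKM plus 1 or 0.1 called 1 in the unwounded one, where it called 1633 or 1601 genes, and 0 in the others.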
